A study of Mus musculus with 6 samples.

Results

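Cdh1, Icam1, Fscn1, Marcks, Marcksl1 and Cacnb3 are genes of adhesion, the actin skeleton and calcium channels that are associated with dendritic cell maturation, and they were followed here in mouse dendritic cells derived from bone marrow and exposed to calcium hydroxide nanoparticles. They were taken by gene name, and all 6 were found once each among the 23398 genes of the deposited table. The vehicle group had 3 libraries of cells given vehicle and the nanoparticle group had 3 libraries of cells given Ca(OH)2 nanoparticles, in both cases for 12 hours and from cells cultured in DMEM with serum. The dose of particles and the mouse strain, sex and age are not given in the sources used here, and nothing says whether the libraries of a group came from separate mice or cultures. The p-values therefore measure only the spread between these libraries, which may be technical. Expression is given in FPKM, fragments per kilobase of transcript on a scale set for each library, so that levels of different genes can be compared per length.

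A dendritic cell takes up antigen in tissue in an immature, adherent state, and on maturation it detaches, forms long actin-rich processes and moves to the lymph node, where it binds T cells. E-cadherin, the product of Cdh1, is a calcium-dependent adhesion protein that joins like cells and holds beta-catenin at its tail. ICAM-1, the product of Icam1, is bound by the integrin LFA-1 on T cells, while fascin (Fscn1) bundles actin filaments and serves as a marker of mature dendritic cells. MARCKS and its smaller relative (Marcks, Marcksl1) lie under the cell membrane, where they bind actin and phosphoinositides and are released on phosphorylation by protein kinase C. Cacnb3 encodes a cytosolic beta subunit that assists the pore-forming subunits of voltage-gated calcium channels.

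Nanoparticle library 1 stood apart from the other nanoparticle libraries. Its correlation with libraries 2 and 3 over the 10682 genes tested, on log2(FPKM + 1), was 0.9423 and 0.9282, whereas libraries 2 and 3 had 0.9895 with each other and the vehicle libraries 0.9926 to 0.9938. Genes are not independent, so these values are descriptions. In that library 1261 tested genes (11.8%) departed over 2-fold from the mean FPKM of libraries 2 and 3, with 1 added to both. Reads recovered over the 22557 genes whose values came out as whole reads were 16026802 to 16908912 in vehicle and 16451456 to 20206879 in nanoparticle libraries. The cultures carried the dendritic cell markers Itgax (442 to 456 FPKM in vehicle and 248 to 398 FPKM with nanoparticles) and H2-Ab1 (982 to 1034 and 494 to 1162 FPKM), while Flt3 was at most 0.0793 FPKM and the macrophage marker Csf1r was at 133 to 175 FPKM. The summed level of the 10 dendritic cell markers was 1473 to 1517 FPKM in vehicle and 756, 1481 and 1562 FPKM in nanoparticle libraries 1 to 3, and 5 of the 8 tested were lower and none higher. Of the lower ones, Cd209a, Clec10a and Kmo reached the level required for testing, 1 FPKM in 3 libraries, through the vehicle group. Their direction is therefore in part set by that level. Xcr1 and Flt3, not tested, were higher in every nanoparticle library than in any vehicle library. The 9 macrophage markers summed to 1100 to 1244 and 1006 to 1226 FPKM, with 3 of 9 tested higher and 4 lower. Over all tested genes 17.0% were higher and 16.2% lower at a limma adjusted p under 0.05. The stromal list summed to 0.0401 to 0.119 FPKM in vehicle and 3.82, 1.39 and 0.923 FPKM in nanoparticle libraries 1 to 3, and the endothelial list to 1.01 to 1.30 FPKM in vehicle and 5.15, 2.24 and 1.98 FPKM there. Kdr, the 1 tested gene of the endothelial list, was higher (limma adjusted p = 0.049). It reached the level required for testing, 1 FPKM in 3 libraries, through the nanoparticle group, so that its direction is in part set by that level. The T and B cell and the mast cell and basophil lists summed to at most 0.538 and 5.78 FPKM in any library, and the neutrophil list to 35.8 to 40.3 FPKM in vehicle and 55.7 to 128 FPKM with nanoparticles, with S100a8 as the most abundant of its members. Whether these shifts have a part in the results below was not tested.

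Of the 6 genes, 4 were higher with nanoparticles and 1 was lower at an adjusted p under 0.05 in limma's moderated test over all genes, and the other did not pass. Over all tested genes 33.2% passed (17.0% higher and 16.2% lower). That balance, 1817 genes higher and 1733 lower, depends on the scale of the libraries: it was 881 and 4306 when all libraries were set to the same FPKM sum, and 1318 and 2720 with upper-quartile scaling. Over all genes the median log2 change was then -0.38 and -0.17. In mean FPKM as deposited, Fscn1, Marcksl1 and Cacnb3 rose by an order of magnitude or more, Icam1 rose 2.00-fold and Cdh1 fell, while Marcks did not pass. With equal FPKM sums the log2 changes of Fscn1, Marcksl1 and Cacnb3 were 4.55, 3.04 and 2.99. The groups did not overlap for 5 of the 6 genes, against 52.1% of all tested genes (25.9% with the nanoparticle group higher and 26.2% with it lower).

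**Figure D1:**
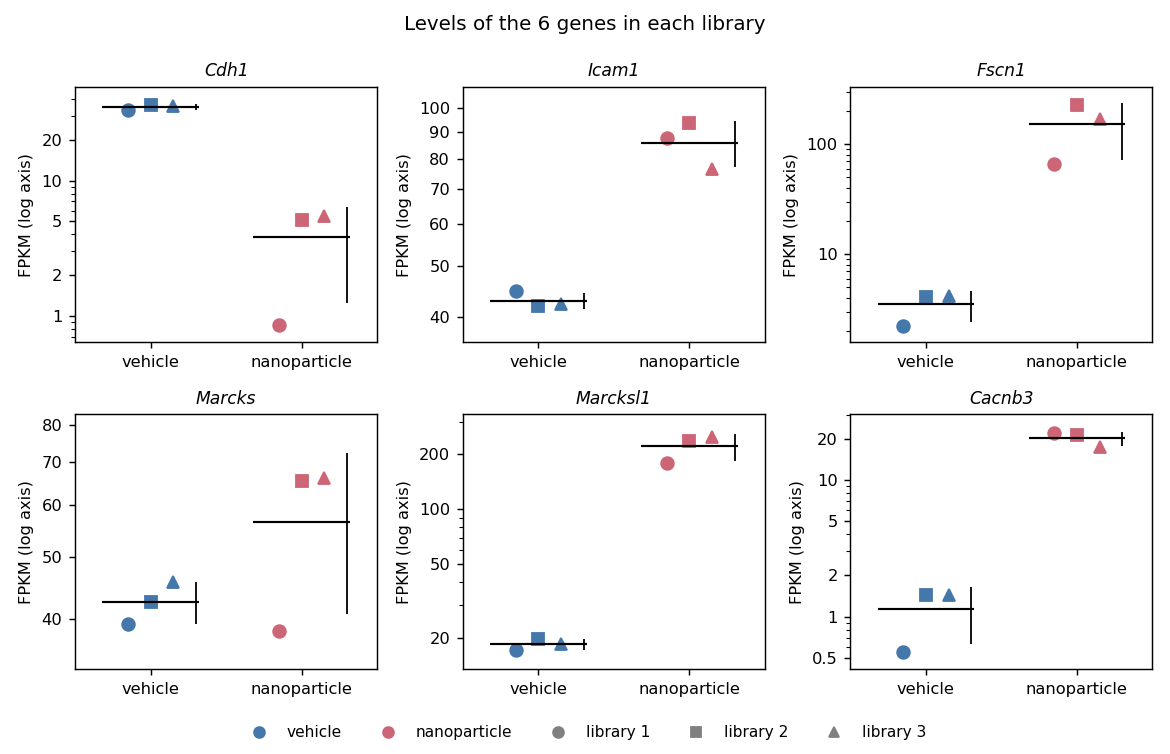
FPKM (log axis, scaled separately in each panel) of the 6 genes in 3 vehicle and 3 nanoparticle libraries. Points are libraries, horizontal bars group means and vertical bars 1 SD. The groups are apart for every gene but Marcks, for which nanoparticle library 1 (38.3 FPKM) lies under all vehicle libraries, and the same library is the lowest for Cdh1 and the lowest of its group for Fscn1.

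Cdh1 (ENSMUSG00000000303, protein coding, chr8:106603351-106670246, plus strand, GRCm38 with GENCODE M21) was the gene that fell. Its level was 33.2, 36.0 and 35.6 FPKM in vehicle libraries 1 to 3 and 0.857, 5.13 and 5.43 FPKM in nanoparticle libraries 1 to 3. All nanoparticle libraries were far under all vehicle libraries, and library 1 was the lowest, resting on 64 reads (95% Poisson interval 49 to 82) against 388 and 479 reads in libraries 2 and 3. The mean went from 34.9 ± 1.54 to 3.81 ± 2.56 FPKM (here and below mean ± SD, n = 3 per group), which is 9.18-fold lower. The log2 change was -3.10 (SE 0.474, 95% interval -4.25 to -1.96, limma adjusted p = 0.0038), and -2.52 without nanoparticle library 1. On this scale of log2(FPKM + 1), which understates the change of scarce genes, it was the second largest decrease among the tested genes. Within the library, Cdh1 went from above 94.8% to 95.2% of all listed genes to above 53.6%, 75.0% and 75.8% of them in nanoparticle libraries 1 to 3. In RNA from whole cultures, fewer cells that carry a transcript and less of it per cell cannot be told apart.

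The other listed cadherins were near the limit of detection. None of the 10 that were found in the table reached the level required for testing, and together they came to 1.02 to 1.32 FPKM in vehicle and 0.876 to 1.49 FPKM with nanoparticles. Cadherin genes outside the list were not examined. Cdh1 held 96.8% ± 0.406 of the summed FPKM of the listed cadherins, itself included, in vehicle and 36.5%, 85.4% and 85.1% in nanoparticle libraries 1 to 3. Of the other listed cadherins Cdh5, the endothelial form, was the most abundant, at 0.360 to 0.581 FPKM in vehicle and 0.503 to 0.816 FPKM with nanoparticles. Epcam, an epithelial adhesion gene that was on the epithelial marker list, fell as well, from 2.19, 4.10 and 4.55 FPKM in the vehicle libraries to 0.0300, 0.444 and 0.661 FPKM in the nanoparticle libraries (log2 change -1.73, SE 0.270, limma adjusted p = 0.0041). Epcam reached the level required for testing through the vehicle group, so that its direction is in part set by that level. Its call held with no such level required. The epithelial list as a whole summed to 2.19 to 4.65 FPKM in vehicle and 0.196 to 0.661 FPKM with nanoparticles. Its members Krt14, Krt19, Cldn4 and Cldn7 were between 0 and 0.0738 FPKM in every library. The part of such cells in the fall of Cdh1 was not tested.

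Among the proteins that bind, cleave or repress E-cadherin and the factors that act with beta-catenin, 14 of 23 listed genes were tested. Of these none was higher and 5 were lower, against 17.0% and 16.2% over all tested genes. Tcf7l2, counted among the lower, reached the testing level through the vehicle group, so that its direction is in part set by that level. With no such level required none was higher and 5 were lower. With a filter at 5 FPKM 1 was higher and 4 were lower, and with limma-voom 1 was higher and 5 were lower. The median log2 change of this list was -0.32, against -0.0010 over all tested genes. Jup, which encodes plakoglobin, a close relative of beta-catenin, fell, with 10.4 ± 0.401 FPKM without and 3.65 ± 0.702 FPKM with nanoparticles and a log2 change of -1.31 (limma adjusted p = 8.6e-04). Adam10, the membrane protease that sheds E-cadherin, fell by 1.06 on the log2 scale (limma adjusted p = 9.8e-04). Afdn, the actin-linked junction protein afadin, and Tcf3, an E-box factor known as a repressor of Cdh1, fell by smaller amounts (log2 changes -0.59 and -0.57, limma adjusted p = 0.022 and 0.013), the Tcf3 call being lost on leaving out any 1 vehicle library and the Afdn call on leaving out any 1 library but nanoparticle library 1. Without nanoparticle library 1 the list had 2 genes higher and 9 lower. Beta-catenin itself (Ctnnb1) ranged from 48.1 to 51.2 FPKM in vehicle libraries and from 42.7 to 58.9 FPKM in nanoparticle libraries and did not pass (log2 change -0.04, limma adjusted p = 0.87), but without nanoparticle library 1 it passed as lower (log2 change -0.17, limma adjusted p = 0.045). The ratio of Cdh1 to Ctnnb1, which does not depend on the scale of the library, was 0.650, 0.749 and 0.696 in vehicle and 0.0145, 0.111 and 0.127 with nanoparticles. The Snail genes, repressors of Cdh1, were scarce: Snai1 and Snai2 were at 0 to 0.352 FPKM in every library. Snai3 was at 0.647 to 0.941 FPKM in vehicle and at 0, 0 and 0.510 FPKM in nanoparticle libraries 1 to 3. Zeb1 was at 0.634 to 0.746 FPKM in vehicle and higher, at 2.34, 1.31 and 0.824 FPKM, in nanoparticle libraries 1 to 3. Neither Snai3 nor Zeb1 reached the level required for testing. Zeb2, the most abundant listed gene of the Snail and Zeb families, was at 11.4 to 11.9 FPKM in vehicle libraries and 9.65 to 17.4 FPKM in nanoparticle libraries.

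Icam1 (ENSMUSG00000037405, protein coding, chr9:21015985-21028817, plus strand) was at 44.7, 41.9 and 42.2 FPKM in vehicle libraries 1 to 3, and at 87.6, 93.6 and 76.5 FPKM in nanoparticle libraries 1 to 3. Every nanoparticle library lay above every vehicle library, and nanoparticle library 1 lay between the others of its group. The group means were 42.9 ± 1.53 and 85.9 ± 8.69 FPKM (SD, n = 3 per group), 2.00-fold apart, with a log2 change of 0.98 (SE 0.116, 95% interval 0.70 to 1.26, limma adjusted p = 0.0014). The increase depends on the scale of the libraries: with all libraries set to the same FPKM sum it was 0.52 on the log2 scale (limma adjusted p = 0.026). Icam1 shares 511 exon bases with an antisense gene, Gm47079, which was listed at 0 to 0.0288 FPKM.

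Promoter sequences of RefSeq (GRCm38.p6) were matched for 4 of the 6 genes, Icam1, Fscn1, Marcksl1 and Cacnb3, all of which rose. Cacnb3 had windows at separate starts. Those of Icam1 and Fscn1 are shown since they hold the short kappa-B form (0.286% of promoter windows) and the CRE (1.55%). They were picked after the search, and the GAS and TATA letters also marked in them are more common. Each run is the 250 bases before the RefSeq start, 5′ to 3′ on the plus strand. Capitals in the Icam1 run, chr9:21015690-21015939, mark a short kappa-B form and a GAS element. Capitals in the Fscn1 run, chr5:142960105-142960354, mark a CRE and a TATA box.
Icam1: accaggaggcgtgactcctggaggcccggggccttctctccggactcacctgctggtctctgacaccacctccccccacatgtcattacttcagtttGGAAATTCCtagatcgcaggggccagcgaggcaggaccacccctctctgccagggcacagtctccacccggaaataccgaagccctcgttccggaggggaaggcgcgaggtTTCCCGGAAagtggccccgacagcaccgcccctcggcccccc
Fscn1: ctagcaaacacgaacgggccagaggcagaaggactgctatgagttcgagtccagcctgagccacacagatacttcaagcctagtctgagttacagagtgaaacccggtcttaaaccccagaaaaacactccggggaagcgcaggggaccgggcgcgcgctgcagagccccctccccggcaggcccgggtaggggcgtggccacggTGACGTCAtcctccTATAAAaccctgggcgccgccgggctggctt
The short kappa-B form GGAAATTCC begins 153 bases before the Icam1 start, and 0.286% of the 32851 windows of this length in the table hold it. The GAS letters TTCNNNGAA, the form bound by STAT factors, begin 42 bases before the Icam1 start and occur in 7.02% of windows. In the Fscn1 window the cyclic AMP element TGACGTCA begins 45 bases before the start (1.55% of windows), and TATAAA 31 bases before it (12.4% of windows). The general kappa-B consensus was found in the windows of all 4 genes, but it is in 45.8% of all windows and is not capitalised here. The AP-1 form TGANTCA (6.75% of windows) and the core of the interferon element ISRE (2.98%) were in none of the windows of these genes. All forms were searched on both strands, and such matches describe the letters and not binding.

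Of the ICAM family, Icam1 carried nearly all of the signal, 95.6% ± 0.349 without and 96.6% ± 0.0946 with nanoparticles of the sum of Icam1, Icam2 and Icam5. Its integrin partners did not pass the test over all libraries as deposited. Itgal, the alpha chain of LFA-1, ranged from 29.9 to 31.8 FPKM in vehicle libraries and from 28.9 to 30.4 FPKM in nanoparticle libraries, and Itgb2, the shared beta chain, from 833 to 901 and from 598 to 724 FPKM (limma adjusted p = 0.64 and 0.093). With equal FPKM sums both passed as lower (log2 changes -0.52 and -0.85, limma adjusted p = 0.013 and 0.0021). Itgb2 passed as lower in 4 of 15 alternatives, among them without nanoparticle library 1 (log2 change -0.31, limma adjusted p = 0.0053). The ratio of Icam1 to Itgb2 was 0.0496, 0.0495 and 0.0507 in vehicle and 0.147, 0.129 and 0.115 with nanoparticles, a log2 difference of 1.38.

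Of 30 listed genes of the ICAM family, its integrins and leukocyte adhesion, Icam1 itself not counted, 20 were tested. Among these 7 rose and 2 fell (17.0% and 16.2% over all tested genes), with -0.03 as the median log2 change. With equal FPKM sums the split was 6 higher and 11 lower, and without nanoparticle library 1 it was 9 and 5. Cd47, a signal against phagocytosis, rose by 1.61 on the log2 scale (limma adjusted p = 3.3e-04), with 14.1 ± 0.0811 FPKM without and 45.5 ± 6.77 FPKM with nanoparticles. Nectin2, a junction protein that is also a ligand of lymphocyte receptors, rose by 1.73 on the log2 scale (limma adjusted p = 0.0021), with 2.65 ± 0.136 FPKM without and 11.5 ± 3.56 FPKM with nanoparticles. F11r, the junctional adhesion molecule JAM-A, and Rap1b, a small GTPase that switches integrins on, rose by 1.09 and 0.86 on the log2 scale (limma adjusted p = 5.1e-04 and 0.0020). The genes that were lower were Selp and Tln1, the latter encoding talin, which links integrins to actin (log2 changes -1.48 and -0.77). They are named here after their values were seen. Selp reached the testing level through the vehicle group, and Vcam1, counted among those that rose, through the nanoparticle group. Their direction is therefore in part set by that level. With no such level required the split was also 7 higher and 2 lower.

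Fscn1 (ENSMUSG00000029581, protein coding, chr5:142960343-142973185, plus strand) had the largest increase of the 6 genes. The vehicle libraries had 2.23, 4.10 and 4.18 FPKM, and the nanoparticle libraries 65.8, 227 and 169 FPKM. The groups were far apart, yet both held a low library. Vehicle library 1 rested on 134 reads (95% Poisson interval 112 to 159) against 245 (215 to 278) and 263 (232 to 297) in the others, and nanoparticle library 1 was 3.01-fold under the mean of libraries 2 and 3. The mean rose 43.9-fold, from 3.51 ± 1.10 to 154 ± 81.7 FPKM. The log2 change was 4.96 (SE 0.468, 95% interval 3.83 to 6.09, limma adjusted p = 6.5e-04), and 5.48 without nanoparticle library 1. Only 36 tested genes, Fscn1 included, had a log2 change that high. Beta-actin (Actb) did not pass the test (limma adjusted p = 0.80), and its direction varied with the scaling. Without nanoparticle library 1 it passed as higher (log2 change 0.44, limma adjusted p = 5.5e-04). Its level was 1854 to 1964 FPKM in the vehicle libraries and 1306, 2550 and 2617 FPKM in nanoparticle libraries 1 to 3. The ratio of Fscn1 to Actb was 0.00184 ± 0.000555 without and 0.0681 ± 0.0195 with nanoparticles, a log2 difference of 5.22. The other fascins, Fscn2 and Fscn3, were at most 0.0738 FPKM.

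Of 40 listed regulators of actin filaments, 35 were tested, of which 3 rose and 9 fell (17.0% and 16.2% over all tested genes), and their median log2 change was -0.08. Enah, counted among those that fell, reached the testing level through the vehicle group, so that its direction is in part set by that level. With no such level required the counts were also 3 higher and 9 lower. Hcls1, a cortactin relative of blood cells, rose by 0.98 on the log2 scale (limma adjusted p = 0.0068), with 109.7 ± 2.58 FPKM without and 220.4 ± 44.0 FPKM with nanoparticles. Flna, the filament cross-linker filamin A, fell by 0.91 on the log2 scale (limma adjusted p = 0.0026), with 192 ± 11.9 FPKM without and 102 ± 10.1 FPKM with nanoparticles. Coro1c, a coronin, and Wipf1, a partner of the Wiskott-Aldrich protein, fell by 0.86 and 0.61 on the log2 scale (limma adjusted p = 0.0010 and 0.0043). The abundant monomer-binding genes Cfl1, Pfn1, Tmsb4x and Tmsb10 did not pass over all libraries. Nanoparticle libraries 2 and 3 were above the vehicle libraries for each of them, while library 1 was under the vehicle libraries for Cfl1, Pfn1 and Tmsb4x and above them for Tmsb10. Without library 1 all of them passed as higher, with log2 changes of 0.53, 0.68, 0.89 and 0.91 in that order. Without nanoparticle library 1, 14 were higher and 17 lower. With equal FPKM sums 1 was higher and 22 were lower.

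Marcks and Marcksl1, which encode closely related proteins, responded unequally. Marcksl1 (ENSMUSG00000047945, protein coding, chr4:129513581-129515985, plus strand) had 17.1, 19.6 and 18.4 FPKM in the vehicle libraries, and 178, 235 and 249 FPKM in the nanoparticle libraries. The groups did not overlap, and the mean rose 12.0-fold, from 18.4 ± 1.25 to 220.5 ± 37.6 FPKM. Its log2 change was 3.50 (SE 0.156, 95% interval 3.12 to 3.88, limma adjusted p = 6.6e-05). Marcks (ENSMUSG00000069662, protein coding, chr10:37133375-37138920, minus strand) had 39.3, 42.6 and 45.6 FPKM in the vehicle libraries, and 38.3, 65.4 and 66.1 FPKM in the nanoparticle libraries. Nanoparticle libraries 2 and 3 were above the vehicle libraries, and library 1 was under them.

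The change of Marcks did not pass over all libraries (group means 42.5 ± 3.15 and 56.6 ± 15.8 FPKM, log2 change 0.37, SE 0.227, 95% interval -0.18 to 0.91, limma adjusted p = 0.27). It was 0.62 (limma adjusted p = 4.1e-04) without nanoparticle library 1, and -0.10 (limma adjusted p = 0.65) with all libraries at equal FPKM sums. The ratio of Marcksl1 to Marcks was 0.435, 0.461 and 0.404 in vehicle and 4.64, 3.59 and 3.76 with nanoparticles. Marcks was the more abundant of the pair in every vehicle library and Marcksl1 in every nanoparticle library. The log2 difference of this ratio was 3.20, and it was 3.09 to 3.27 when any 1 library was left out. For this ratio nanoparticle library 1 was the highest of its group.

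**Figure D2:**
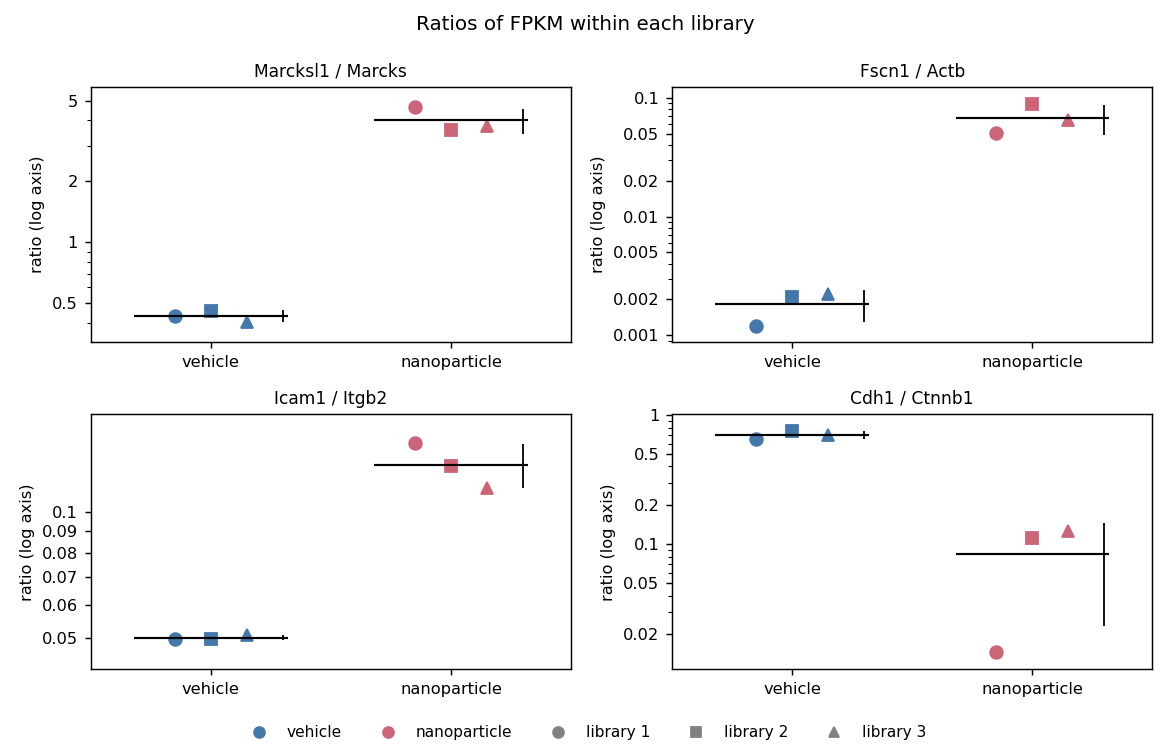
Ratios of FPKM within each library (log axis, scaled separately in each panel) for Marcksl1 to Marcks, Fscn1 to Actb, Icam1 to Itgb2 and Cdh1 to Ctnnb1, in 3 vehicle and 3 nanoparticle libraries. Points are libraries, horizontal bars group means and vertical bars 1 SD. The groups are apart in each panel, with Marcksl1 to Marcks at 0.404 to 0.461 in vehicle and 3.59 to 4.64 with nanoparticles.

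The 4 ratios above and the shares of Cdh1, Icam1 and Cacnb3 among the listed genes of their families made 7 ratios in all, and in each the groups did not overlap. The exact permutation test over libraries (two-sided) gave p = 0.1 for every one (Benjamini-Hochberg adjusted p = 0.1), which is the smallest p that 3 libraries against 3 allow, so none can pass a threshold of 0.05.

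Of 20 listed relatives, kinases and binding partners of the MARCKS proteins, 15 were tested, of which 2 rose and 6 fell (17.0% and 16.2% over all tested genes). Prkch, counted among those that fell, reached the testing level through the vehicle group, so that its direction is in part set by that level. With no such level required 2 were higher and 7 lower. The median log2 change of the tested genes was -0.27. The counts were 6 higher and 9 lower without nanoparticle library 1, and with equal FPKM sums 0 were higher and 11 lower. Basp1, a membrane protein of similar design, was one of those that rose, with 84.9 ± 2.52 FPKM without and 163 ± 36.7 FPKM with nanoparticles (log2 change 0.91, limma adjusted p = 0.0098). It is named after its values were seen. Pip5k1a, a kinase that makes the phosphoinositide that MARCKS proteins bind, rose by 0.67 on the log2 scale (limma adjusted p = 0.0024). Neither call held with equal FPKM sums. Add3, a gamma adducin with a MARCKS-related domain, fell by 2.13 on the log2 scale (limma adjusted p = 3.6e-04), with 14.3 ± 0.402 FPKM without and 2.55 ± 0.751 FPKM with nanoparticles. Prkcb, a protein kinase C, fell by 1.08, and Plcg2, the phospholipase whose product activates that kinase family, by 0.55 on the log2 scale (limma adjusted p = 0.0023 and 0.0065). Prkcd, the most abundant of the listed kinases of that family, had 136 to 137 FPKM in the vehicle libraries and 94.7, 149.6 and 152 FPKM in the nanoparticle libraries and did not pass, but it passed as lower with equal FPKM sums (log2 change -0.55, limma adjusted p = 0.019) and as higher without nanoparticle library 1 (log2 change 0.14, limma adjusted p = 0.030).

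Cacnb3 (ENSMUSG00000003352, protein coding, chr15:98630840-98644529, plus strand) was the scarcest of the 6 genes in vehicle. The vehicle libraries had 0.551, 1.43 and 1.45 FPKM, against 21.9, 21.2 and 17.4 FPKM in the nanoparticle libraries. The groups did not overlap, and here nanoparticle library 1 was the highest. Vehicle library 1 was low, with 44 reads (95% Poisson interval 32 to 59) against 114 (94 to 137) and 121 (100 to 145) in the others. The mean rose 17.6-fold, from 1.14 ± 0.513 to 20.2 ± 2.38 FPKM. The log2 change of FPKM + 1 was 3.33 (SE 0.207, 95% interval 2.83 to 3.83, limma adjusted p = 1.6e-04), which understates the change of a gene this low, and with 0.01 added in place of 1 it was 4.25. Cacnb3 reached the testing level through the nanoparticle group, and its call held with no such level required.

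The channel that this subunit would serve was hardly seen. All 8 pore-forming subunit genes in the table were under the testing level, from 0 to 0.943 FPKM in any library, Cacna1b being the highest. Cacnb1 had 0.647 ± 0.0552 FPKM without and 1.81 ± 0.616 FPKM with nanoparticles, and Cacnb2 and Cacnb4 were at most 0.108 FPKM. Cacnb3 made up 41.6%, 68.5% and 64.1% of the 4 beta subunit genes in vehicle and 89.5%, 92.5% and 92.6% with nanoparticles. Of 21 listed subunits and binders 2 were tested, Gem and Cacnb1, and both reached the testing level through the nanoparticle group, where they are high, so that their direction is in part set by that level. With no such level required, 2 of the list were higher and 1 lower, around a median log2 change of -0.0025. The log2 changes were 3.04 for Gem and 0.75 for Cacnb1. Gem, a small GTPase that binds channel beta subunits, had 0.767 to 1.25 FPKM in the vehicle libraries and 35.8, 11.4 and 8.73 FPKM in nanoparticle libraries 1 to 3 (limma adjusted p = 0.0044), and the Cacnb1 call (limma adjusted p = 0.016) was lost with equal FPKM sums and on leaving out any 1 vehicle library.

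**Figure D3:**
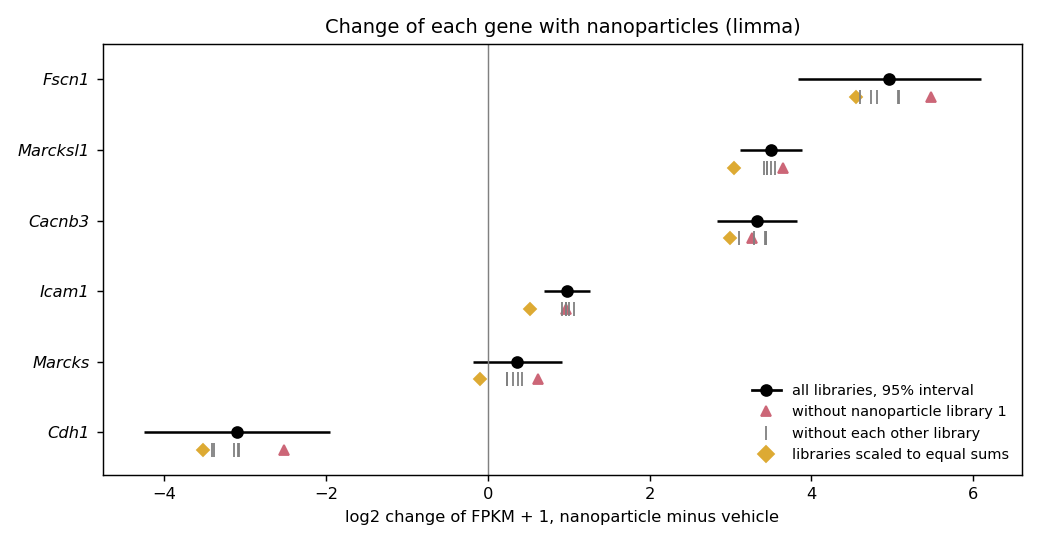
Log2 change of FPKM + 1, nanoparticle minus vehicle, for the 6 genes. Black points and bars are limma estimates with 95% intervals over all libraries, and the marks under each give the same value without nanoparticle library 1, without each of the other libraries, and with libraries scaled to equal FPKM sums. The sign is kept for every gene but Marcks, which goes from 0.37 to -0.10 with equal sums.

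The order of the genes by level per length differed between the groups. In vehicle Icam1 (42.9 FPKM) and Marcks (42.5 FPKM) were highest with ranges that overlap, followed by Cdh1, Marcksl1, Fscn1 and Cacnb3 with ranges that do not overlap their neighbours. With nanoparticles Marcksl1 was highest, with a range (178 to 249 FPKM) that overlaps that of Fscn1 (65.8 to 227 FPKM), which in turn overlaps that of Icam1. The range of Marcks (38.3 to 66.1 FPKM) came next, under that of Icam1 but touching the lowest value of Fscn1. Cacnb3 and Cdh1 followed, each under all the genes before it. Cdh1 was thus between Marcks and Marcksl1 in vehicle and last with nanoparticles.

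Nanoparticle library 1 deviated for some of these genes and not for others. It lay 6.16-fold under the mean of libraries 2 and 3 for Cdh1, 3.01-fold for Fscn1, 1.72-fold for Marcks and 1.36-fold for Marcksl1. For Cacnb3 and Icam1 it was 1.13-fold and 1.03-fold above that mean. For Cdh1 this puts the library farther from vehicle than the others of its group, and for Fscn1 and Marcksl1 nearer to it.

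The genes whose profile over the 6 libraries was nearest to each of the 6 genes were found by the Euclidean distance of log2(FPKM + 1), centred on each gene's own mean. For Cdh1 these were Asb2 (distance 0.408), Hr (0.411) and Trp53i11 (0.440), which share with it the lowest value in nanoparticle library 1. For Fscn1 they were Apol7c (0.667), Cxcl5 (1.04) and Ccr7 (1.24), the last being the receptor that guides mature dendritic cells to the lymph node. Apol7c had 1.22, 2.03 and 1.63 FPKM in the vehicle libraries and 24.7, 120.2 and 108 FPKM in the nanoparticle libraries, with nanoparticle library 1 again the lowest of its group. For Marcksl1 they were Ly6i (0.235), Sod2 (0.290) and AA467197 (0.462), and for Cacnb3 Fpr1 (0.470), Gadd45b (0.503) and Cxcl16 (0.538). The formyl peptide receptor gene Fpr1, like Cacnb3, was low in vehicle library 1, at 2.92 FPKM against 6.36 and 6.22 FPKM. For Icam1 they were Nfkbid (0.120), an inhibitor-like regulator of NF-kappa-B, Txnrd1 (0.155) and Serpinb9b (0.168), and for Marcks Vbp1 (0.109), Atp6v0d1 (0.128) and Cox16 (0.133). Reads shared within families such as those of Apol7c, Ly6i and Serpinb9b were handled in a way not given in the sources used here, so their values are uncertain. All these genes were picked by the values of the same 6 libraries. A low library that they share with their gene follows from that choice and is no separate result.

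**Figure D4:**
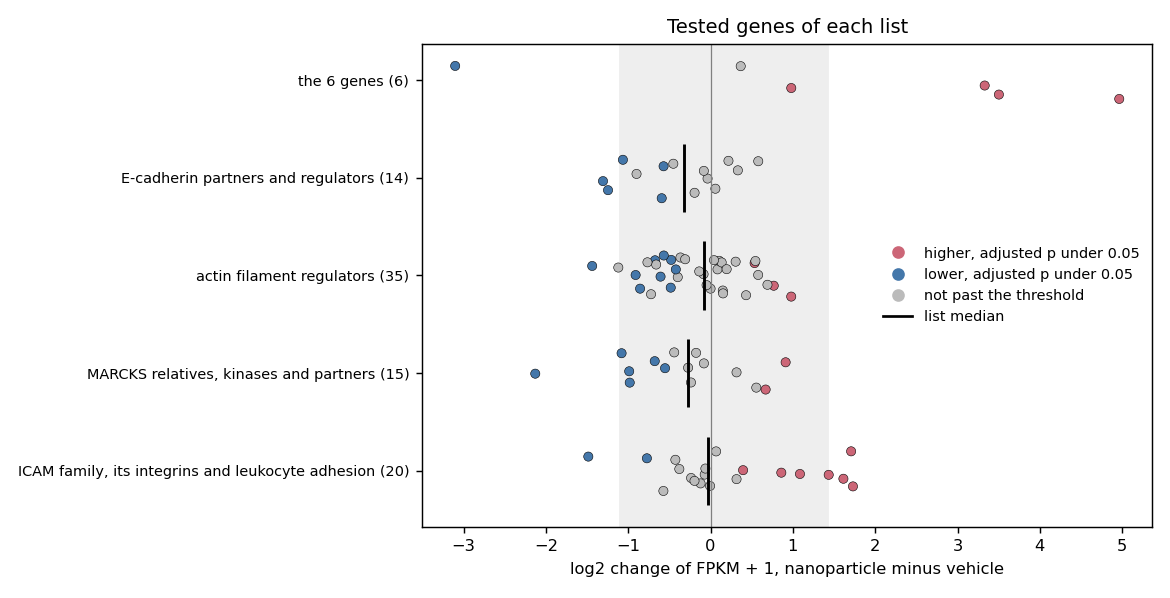
Log2 change of FPKM + 1, nanoparticle minus vehicle, of the 6 genes and of the tested genes of 4 lists, with the number tested in brackets. Each point is a gene, coloured by direction where the limma adjusted p is under 0.05, black bars are list medians, and the grey band holds the 5th to 95th percentile of all tested genes (-1.10 to 1.43). Fscn1, Marcksl1, Cacnb3 and Cdh1 lie outside the band, and the list medians lie between -0.32 and -0.03.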

How the data were processed

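RNA of mouse dendritic cells was sequenced in 6 libraries, each from 1 ug of total RNA. Titles gave each library its group and number. The submitters' processing notes name CASAVA, STAR 2.5, HTSeq, edgeR 3.16.5 and DESeq2 with the builds mm10 and hg19, and give no role or order. The authors deposited 2 tables, one of them named for read counts, and all 140388 values were identical between them. The deposited values were treated as FPKM, a unit inferred from the values: multiplied by the merged exon length of GENCODE M21, which matched 23388 of 23398 IDs, 95.8% to 96.1% of the values above 0 were within 0.01 of a whole number of reads on 1 scale per library. That scale was not proportional to the library total, so FPKM sums were 321728 to 328384 in vehicle and 400186 to 491404 in nanoparticle libraries, and how it was set is, like strand, read length and the handling of shared reads, not given in the sources used here. The recovered reads set the counting error of each value, and their intervals cover counting error only. Positions are those of GENCODE M21 on GRCm38.

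A gene was tested if 3 or more libraries had 1 FPKM or more. To its values 1 was added, log2 was taken, and limma 3.58.1 in R 4.3.3 (lmFit, eBayes with trend, prior degrees of freedom 2.33) was fitted over all of them with group as its term. The fit was also run on simulated data, in which every gene had the median spread of the vehicle libraries in both groups. That run does not cover the wider spread among the nanoparticle libraries. P-values were adjusted by Benjamini and Hochberg over all genes tested, with a threshold of 0.05, and log2 changes are on the FPKM + 1 scale. Ratios within a library were tested by exact permutation of libraries (scipy 1.17.1). From each of 6 lists, up to 4 genes are named: those with the smallest adjusted p among genes past the threshold with groups apart and a mean of 5 FPKM or more in one of them. The 3 nearest profiles are named for each gene, and other names are given as examples of levels. Some genes and gene groups are not reported here. The members and lists were chosen with earlier results of these data known. Alternatives were other pseudocounts, filters, scalings, no trend, limma-voom, a replicate block and leaving out each library.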

Additional observations from a re-analysis of the deposited data

How the results depend on the processing

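Cdh1, Fscn1, Marcksl1, Cacnb3 and Icam1 kept their direction and their call in all 15 alternatives run for each. Their log2 changes ran from -3.59 to -2.52, 4.55 to 5.48, 3.04 to 3.65, 2.99 to 4.25 and 0.52 to 1.06. Marcks reversed to -0.0959 with equal FPKM sums (limma adjusted p = 0.65) and passed at 0.621 without nanoparticle replicate 1, so that 6 genes passed there. The cause was not tested. Leaving out 1 library gave 0.235 to 0.621 for Marcks.

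Scaling moved the balance over all genes. With 1817 genes higher and 1733 lower as reported, equal sums gave 881 and 4306 (median log2 change of all genes -0.38), and upper-quartile scaling gave 1318 and 2720 (-0.17). A filter at 5 FPKM left 975 lower, with fewer genes tested. Leaving out 1 library gave 2141 to 6923 genes in place of 3550, with 1114 to 3660 higher and 1027 to 3263 lower, the highest without nanoparticle replicate 1, where all 3550 remained.

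Calls in the E-cadherin list went from 5 to 8 with equal sums and to 8 with upper-quartile scaling, in the actin list from 12 to 23, in the ICAM list from 9 to 17 and in the channel list from 2 to 1 with equal sums, and to 1 with the filter at 5 FPKM. Leaving out 1 library gave 3 to 11 for the E-cadherin, 5 to 31 for the actin, 7 to 15 for the MARCKS, 1 to 2 for the channel and 8 to 14 for the ICAM list. The highest counts were without nanoparticle replicate 1, and leaving out 1 vehicle replicate gave the lowest count of each list (for the actin list, replicate 2 or 3). No ratio changed direction, and the log2 difference in the share of Cdh1 among listed cadherins went from -0.59 to -0.18 without nanoparticle replicate 1.

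Nothing in the labels says that same-numbered libraries belong together, so the numbers were not taken to pair them. Same-numbered libraries had correlations of deviations from group means of 0.0654, 0.113 and -0.0577 across genes. Differently numbered libraries had -0.129 to 0.108. With 3 libraries per group these values cannot decide whether the libraries were paired. A replicate block gave 2785 genes, left the calls of the 6 genes as they were, and gave 7 in place of 12 in the actin list.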

Other observations

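Several genes of these lists that were scarce in vehicle, chosen here after their values were seen, also changed. Vcam1, an adhesion molecule bound by integrins of lymphocytes, rose by 1.71 on the log2 scale (limma adjusted p = 0.0017), from 0.489 to 0.540 FPKM in vehicle libraries to 5.85, 3.52 and 2.89 FPKM in nanoparticle libraries 1 to 3. Vcam1 reached the testing level through the nanoparticle group, so that its direction is in part set by that level. Its call held with no such level required. Pvr, the poliovirus receptor and a relative of Nectin2, rose by 1.43 (limma adjusted p = 0.0099). The kinase genes Prkch and Prkd2 fell, with 3.07 and 3.80 FPKM as means in vehicle and 1.05 and 1.43 FPKM with nanoparticles (limma adjusted p = 5.7e-04 and 0.0020). Prkch reached the testing level through the vehicle group, so that its direction is in part set by that level.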
